A study of Mus musculus with 7 samples.

Results

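Ptpn13 and 9 other genes of the classical non-receptor protein tyrosine phosphatases (Ptpn1, Ptpn2, Ptpn3, Ptpn6, Ptpn7, Ptpn11, Ptpn12, Ptpn18 and Ptpn22) were taken by symbol from the 48440 genes of the deposited expression table. They are 10 of the 17 classical non-receptor genes listed for this comparison. Ptpn13 was chosen because it was known to differ between the groups compared here, so its values are given as a description without a test. The other 9 were chosen by family, also with earlier results of these data known.

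The study asked what loss of PROSER1, a protein that binds TET enzymes, does to blood stem and progenitor cells. RNA was measured in LSK cells, which are bone marrow (BM) cells without lineage markers that carry Sca1 and cKit and contain the hematopoietic stem cells (HSCs). They were sorted from irradiated (9.5 Gy) C57BL/6 recipients 77 days after transplantation of unfractionated BM from wild-type donors (4 libraries) or from donors with a constitutive, endonuclease-mediated PROSER1 KO (3 libraries). All recipients were irradiated and transplanted and received no other treatment. The sort, as the labels describe it, did not separate donor cells from LSK cells left in the recipient. The labels call the libraries biological replicates, without stating whether each came from 1 recipient or from a pool, so p-values measure the spread between these libraries.

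Tyrosine phosphatases remove phosphate from tyrosine residues and thereby oppose, and sometimes assist, the tyrosine kinases that act below cytokine and growth factor receptors. The non-receptor members lack a membrane-spanning receptor part and are directed to their substrates by other domains: SH2 domains in Ptpn6 (SHP-1) and Ptpn11 (SHP-2), FERM and PDZ domains in Ptpn13 and Ptpn3, and proline-rich tails in the PEST-type enzymes Ptpn12, Ptpn18 and Ptpn22. In blood cells, Ptpn6 is best known as a brake on myeloid and lymphoid signaling and Ptpn11 as a positive element between cytokine receptors and the RAS pathway. Ptpn13 is a very large scaffold-like phosphatase that has been linked to the Fas receptor, to ephrin signaling and to beta-catenin.

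Values are normalized counts, which are the read pairs counted on a gene divided by 1 size factor per library. Depth on genes was 33143619 to 42742329 read pairs in wild-type libraries and 37140168 to 45140743 in PROSER1 KO libraries, and the upper limit for a gene at 0 (3 read pairs, counting error only) was 2.54 to 3.48 normalized counts. The sorted population carried its gate genes, with Kit between 25535 and 32357 and Ly6a (Sca1) between 3961 and 6822 in all 7 libraries. Markers of other cells were not absent: the summed level of 7 plasma cell genes was 170818 to 428871 in wild-type and 199947 to 298722 in PROSER1 KO libraries, and that of 9 T and innate lymphoid genes was 1517 to 2425 and 1348 to 2711. Of the T and innate lymphoid genes, Gata3 was highest, at 960 to 1589 in wild-type and 1054 to 1187 in PROSER1 KO libraries. The summed level of each of the 10 marker lists overlapped between the groups, although a few abundant genes carry some of these sums, and no listed gene was at 0 in every library. All 7 plasma cell genes had a log2 difference below 0, with overlapping groups, and the basophil gene Mcpt8, at 211 ± 35.5 (SD, n = 4) in wild-type and 121 ± 38.9 (SD, n = 3) in PROSER1 KO libraries without overlap, was called lower by DESeq2 (log2 difference -0.80, adjusted p = 0.0414) and not by limma or edgeR. Of the 6 mast cell and basophil genes, 4 had a log2 difference below 0 and 2 above. Cpa3 was among the latter (0.23), with PROSER1 KO above wild-type without overlap. Of the 8 megakaryocyte and erythroid genes, 7 had a log2 difference above 0, with overlapping groups. Of the 14 long-term HSC genes, 10 were above 0 and 4 below. The groups did not overlap for 3 of them (Mecom below, Fgd5 and Hoxb5 above). Over all tested genes, PROSER1 KO lay below without overlap for 4.83% and above for 5.17%. Proser1 itself was not lower in the libraries labelled PROSER1 KO (2387 ± 67.5, SD, n = 3) than in wild-type libraries (2088 ± 55.5, SD, n = 4), with a log2 difference of 0.19 and an adjusted p of 0.204 from limma. Its mRNA therefore gave no check of the labels, and every direction given here rests on them, also where the libraries are called PROSER1 KO for short.

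The promoter of Ptpn13 is shown because this gene carried the main difference and because PROSER1 belongs to the machinery of DNA demethylation, which acts on CpG. That of Ptpn6 is shown for contrast, as the member with the highest level per length. Both are the 250 bases upstream of the RefSeq start in GRCm38.p6, written 5′ to 3′ on the strand of the gene with every CpG (the letters CG, which read the same on both strands) in capitals. The window of Ptpn13 is chr5:103424942-103425191 on the forward strand, and that of Ptpn6 is chr6:124738710-124738959 on the reverse strand.
Ptpn13: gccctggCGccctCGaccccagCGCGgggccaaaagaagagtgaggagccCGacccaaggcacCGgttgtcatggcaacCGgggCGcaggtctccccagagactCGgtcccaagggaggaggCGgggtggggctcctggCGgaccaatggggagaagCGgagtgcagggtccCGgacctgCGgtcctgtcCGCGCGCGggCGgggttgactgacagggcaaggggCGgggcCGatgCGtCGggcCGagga
Ptpn6: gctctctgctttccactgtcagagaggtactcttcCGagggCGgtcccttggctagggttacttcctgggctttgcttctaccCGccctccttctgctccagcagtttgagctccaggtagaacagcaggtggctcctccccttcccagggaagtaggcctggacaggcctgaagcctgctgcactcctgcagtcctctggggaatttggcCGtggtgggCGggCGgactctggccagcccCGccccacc
The Ptpn13 window held 24 CpG and was 72.4% G or C, and 88.0% of all 32851 such windows held fewer CpG. The Ptpn6 window held 7 CpG and was 63.2% G or C, close to the median of 6 CpG over all windows, of which 92.1% held at least 1. Among the other members with a window, Ptpn1 had 41 CpG, Ptpn11 31, Ptpn18 19 and Ptpn3 12, while the pair of windows of Ptpn7 had 9 and 6 and that of Ptpn22 had 5 and 2. The members thus ranged from CpG-dense to CpG-poor promoters, with Ptpn13 on the dense side. No methylation values were analysed here.

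Ptpn13 (ENSMUSG00000034573) occupies bases 103425192 to 103598303 of chromosome 5 (GRCm38, forward strand) and has 12102 exonic bases. The 4 wild-type libraries, in the order of their replicate numbers, had 417, 209, 203 and 213 normalized counts. The 3 PROSER1 KO libraries had 101, 80.4 and 112. Every PROSER1 KO library lay below every wild-type library, and the lowest wild-type value was 1.81 times the highest PROSER1 KO value. Wild-type replicate 1 stood apart, at 2.00 times the mean of the other 3 wild-type libraries, which lay between 203 and 213.

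The group means of Ptpn13 were 261 ± 104 (SD, n = 4) and 98.0 ± 16.2 (SD, n = 3), so that the wild-type mean was 2.66 times the PROSER1 KO mean. The log2 difference (PROSER1 KO minus wild-type, on log2(normalized count + 1)) was -1.35 with a standard error of 0.26. Without wild-type replicate 1, the wild-type mean was 209 ± 4.95 (SD, n = 3), 2.13 times the PROSER1 KO mean, and the log2 difference was -1.10. In terms of rank, 119 of the 16251 genes with a mean of at least 10 had a more negative log2 difference. In bulk RNA, fewer cells with Ptpn13 mRNA and less Ptpn13 mRNA per cell cannot be told apart.

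These values rest on 434, 232, 177 and 184 read pairs in the wild-type and 97, 95 and 117 in the PROSER1 KO libraries. The 95% counting interval was 379 to 459 normalized counts in wild-type replicate 1 and reached from 175 to 246 over the other wild-type libraries. It reached from 65.0 to 135 over the PROSER1 KO libraries. These intervals leave out the spread between replicates. Over all genes above a minimum of read pairs, that spread gave a chi-square per degree of freedom of 27.8 to 88.0 between libraries of the same group. This is a mean to which abundant genes add most, and it is not the spread of Ptpn13 itself. Markers of several other cell types also stood apart in wild-type replicate 1, given here as the mean log2 deviation of a list from its mean over the 7 libraries. The granulocyte and monocyte list was highest there (0.59), followed by PROSER1 KO replicate 3 (0.43), the PROSER1 KO library with the most Ptpn13. PROSER1 KO replicate 2 (-0.05), with the least Ptpn13, stood above PROSER1 KO replicate 1 (-0.39). The neutrophil granule gene Ltf was at 1077 in wild-type replicate 1, at 110 to 334 in the other wild-type libraries and at 734 in PROSER1 KO replicate 3. S100a8, S100a9 and Camp were also highest in wild-type replicate 1. In contrast, Mpo, Elane, Prtn3, Ctsg and Csf3r had their lowest wild-type value there (Mpo 15049, against 15789 to 19269). The summed level of the list did not stand apart in wild-type replicate 1, at 33361 within a wild-type range of 33247 to 37777. The megakaryocyte and erythroid list was lowest in wild-type replicate 1 (-0.61) and highest in PROSER1 KO replicate 1 (0.50). The summed T and innate lymphoid markers were 2425 in wild-type replicate 1, against 1517 to 1629 in the other wild-type libraries. They were 2711 in PROSER1 KO replicate 1, where Ptpn13 was at 101. Different genes carried these sums: Gata3 was at 1589 in wild-type replicate 1 and 1187 in PROSER1 KO replicate 1, whereas Cd3g was at 52.9 and 697. The summed level of 7 lymphoid-primed progenitor genes was 93511 in wild-type replicate 1 and 96291 in PROSER1 KO replicate 1, against 65521 to 74977 in the other libraries. The part of these markers in the Ptpn13 values was not tested. The antisense gene Gm42620 shares 70 exonic bases (0.578%) with Ptpn13 on the opposite strand and was at 0 in every library.

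**Figure D1:**
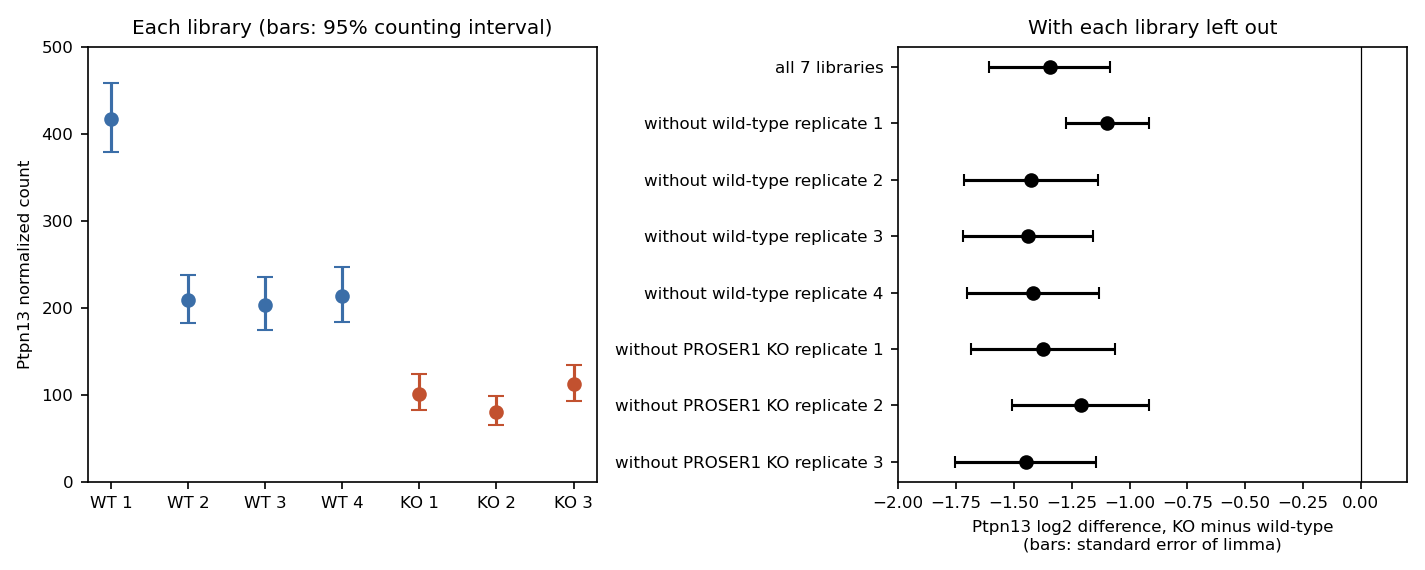
Normalized count of Ptpn13 in each of the 7 LSK libraries, with bars for the 95% counting interval (left, counting error only), and its log2 difference (PROSER1 KO minus wild-type, bars of 1 standard error from limma) with all libraries and with each left out (right). The 3 libraries labelled PROSER1 KO sit between 80.4 and 112, below all 4 wild-type libraries, and wild-type replicate 1 sits at 417, apart from the other wild-type libraries at 203 to 213. The log2 difference stays between -1.45 and -1.10.

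The other 9 phosphatases were compared with limma over all 16251 genes, and a call needed a Benjamini-Hochberg adjusted p under 0.05 and a fold change above 1.5. None of the 9 was called by limma, edgeR or DESeq2, and 1 of 9 (Ptpn7) had an unadjusted p under 0.05 by limma. Over all genes tested, 0.258% were called by limma, 0.246% by edgeR and 0.873% by DESeq2, and 9.73% had an unadjusted p under 0.05 by limma. The groups did not overlap for 2 of the 9: all PROSER1 KO values were above the wild-type values for Ptpn7, as for 5.17% of all tested genes, and below them for Ptpn18, as for 4.83%. With Ptpn13 included, 0 of 10 members were called by limma, and DESeq2 called 1 of 10, Ptpn13, with a DESeq2 log2 difference of -1.42. No conclusion on Ptpn13 is drawn from either count, since the gene was chosen on this contrast.

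**Figure D2:**
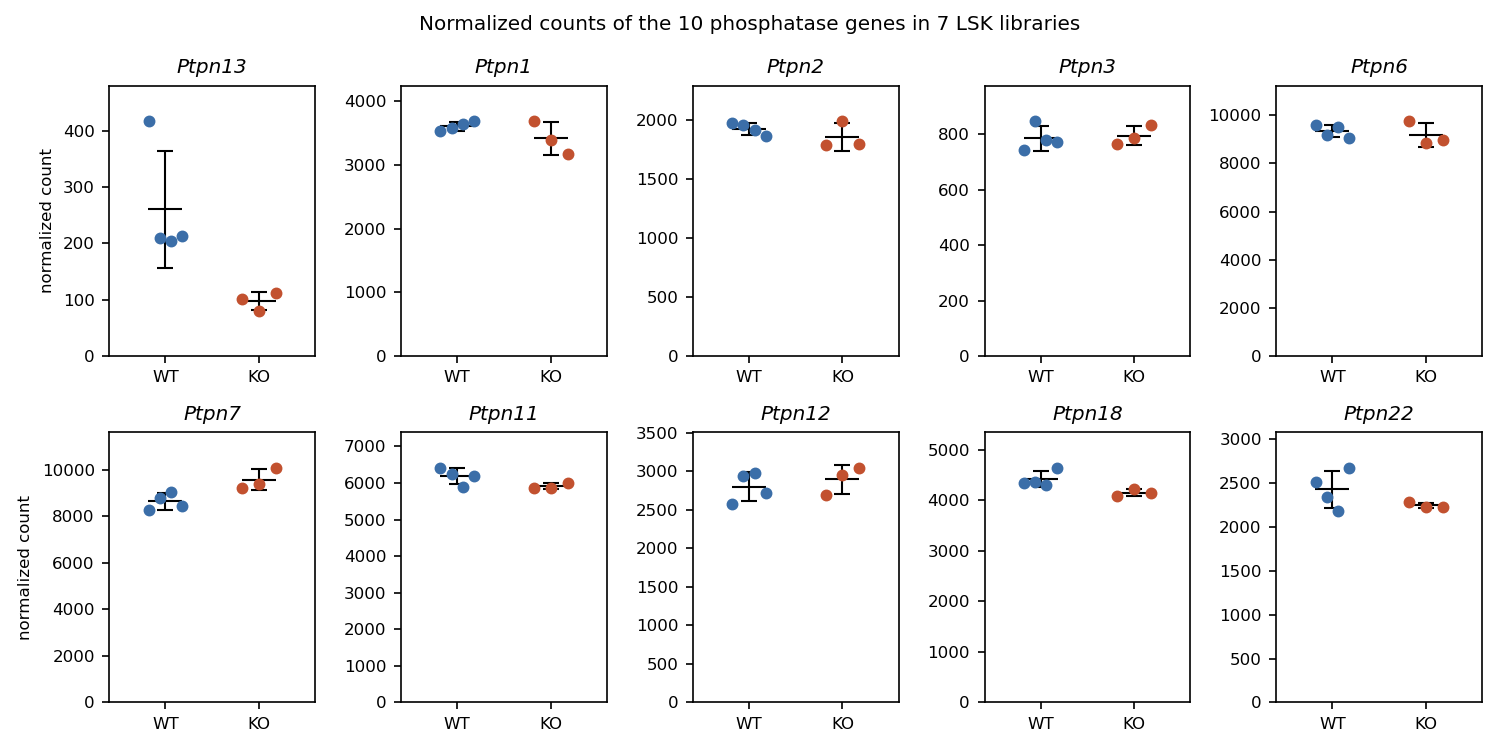
Normalized counts of the 10 phosphatase genes, 1 panel a gene, with a point for each wild-type (WT, n = 4) and PROSER1 KO (KO, n = 3) library, a long line at the mean and bars of 1 SD. Ptpn13 is the member with the widest relative gap between the groups, and the points of Ptpn7 (KO above) and Ptpn18 (KO below) are separated by small distances.

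The SH2-domain phosphatases had high and even levels. Ptpn6, the inhibitory SHP-1, had 9599, 9197, 9505 and 9055 normalized counts in the wild-type libraries (replicates 1 to 4, the order used throughout), compared with 9755, 8839 and 8966 in the PROSER1 KO libraries. Its highest and its lowest value were both in the PROSER1 KO group, with a log2 difference of -0.02 (95% interval -0.13 to 0.08, adjusted p = 0.917 from limma). Ptpn11, the RAS-pathway phosphatase SHP-2, was at 6418, 6235, 5887 and 6186 in wild-type libraries, compared with 5867, 5866 and 6007 with PROSER1 KO. The PROSER1 KO values lay at the lower end of the wild-type range and overlapped it, with a log2 difference of -0.06 (95% interval -0.16 to 0.04, adjusted p = 0.685 from limma). An antisense gene, Gm20531, shares 195 exonic bases (6.96%) with Ptpn6 but had a mean normalized count of only 6.38.

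The phosphatases of JAK kinases were close to equal in both groups. Ptpn1 (PTP1B), which acts from the endoplasmic reticulum on the insulin receptor and JAK2, was at 3531, 3582, 3642 and 3689 in wild-type libraries, compared with 3689, 3387 and 3179 with PROSER1 KO. PROSER1 KO replicate 1 matched the highest wild-type library and the other PROSER1 KO libraries were below all of them, so the groups overlapped (log2 difference -0.08, 95% interval -0.21 to 0.04, adjusted p = 0.682 from limma). Ptpn2 (TC-PTP), which acts on JAK1, JAK3 and STAT proteins, was at 1974, 1956, 1911 and 1862 in wild-type libraries, compared with 1785, 1990 and 1795 with PROSER1 KO. Its highest value and its lowest were both in PROSER1 KO libraries, with a log2 difference of -0.05 (95% interval -0.18 to 0.07, adjusted p = 0.807 from limma).

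Ptpn7 (HePTP), a phosphatase of blood cells that acts on MAP kinases, was the member with the highest log2 difference. It lies on chromosome 1 from 135132700 to 135145317 (GRCm38, forward strand). Wild-type libraries had 8282, 8776, 9068 and 8439 normalized counts, and PROSER1 KO libraries had 9221, 9403 and 10091. All PROSER1 KO libraries lay above all wild-type libraries, by a margin smaller than the spread within either group. Its mean was 8641 ± 351 (SD, n = 4) in wild-type and 9572 ± 459 (SD, n = 3) in PROSER1 KO libraries, a log2 difference of 0.15 (95% interval 0.03 to 0.26) that did not pass the adjusted threshold (adjusted p = 0.380 from limma).

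The PEST-type phosphatases, which act on adaptors of the cytoskeleton and on SRC-family kinases, were not called either. Ptpn12 (PTP-PEST) was at 2576, 2932, 2980 and 2714 in wild-type libraries, compared with 2685, 2954 and 3045 with PROSER1 KO, which overlapped over nearly their whole range (log2 difference 0.05, 95% interval -0.10 to 0.20, adjusted p = 0.874 from limma). Ptpn22 (PEP), a partner of the kinase CSK that restrains antigen receptor signaling, was at 2507, 2345, 2177 and 2673 in wild-type libraries, compared with 2280, 2221 and 2230 with PROSER1 KO. The narrow PROSER1 KO group lay inside the lower part of the wide wild-type group, with a log2 difference of -0.11 (95% interval -0.27 to 0.05, adjusted p = 0.662 from limma).

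Ptpn18, the PEST-type enzyme on chromosome 1 from 34459762 to 34475733 (forward strand), was at 4343, 4365, 4302 and 4645 in wild-type libraries, compared with 4087, 4217 and 4149 with PROSER1 KO. All PROSER1 KO libraries lay below all wild-type libraries. Its mean was 4414 ± 156 (SD, n = 4) in wild-type and 4151 ± 65.2 (SD, n = 3) in PROSER1 KO libraries, a log2 difference of -0.09 (95% interval -0.19 to 0.01, adjusted p = 0.564 from limma). Ptpn18 shares 492 exonic bases (7.58%) with Gm28417, a gene on the opposite strand with a mean normalized count of 867. The strand setting of the counting is not given in the sources used here, so that reads in the shared bases could not be assigned with certainty.

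Ptpn3, the member that shares the FERM and PDZ domains with Ptpn13, was at 742, 847, 779 and 772 in wild-type libraries, compared with 767, 788 and 832 with PROSER1 KO. The PROSER1 KO values fell within the wild-type range. The log2 difference was 0.02 (95% interval -0.15 to 0.18, adjusted p = 0.959 from limma), and its sign was not stable: it was below 0 in 4 of the 20 alternative settings, each a setting with 1 library left out. Over the 9 members other than Ptpn13, the 95% intervals of the log2 difference stayed between -0.27 and 0.26.

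**Figure D3:**
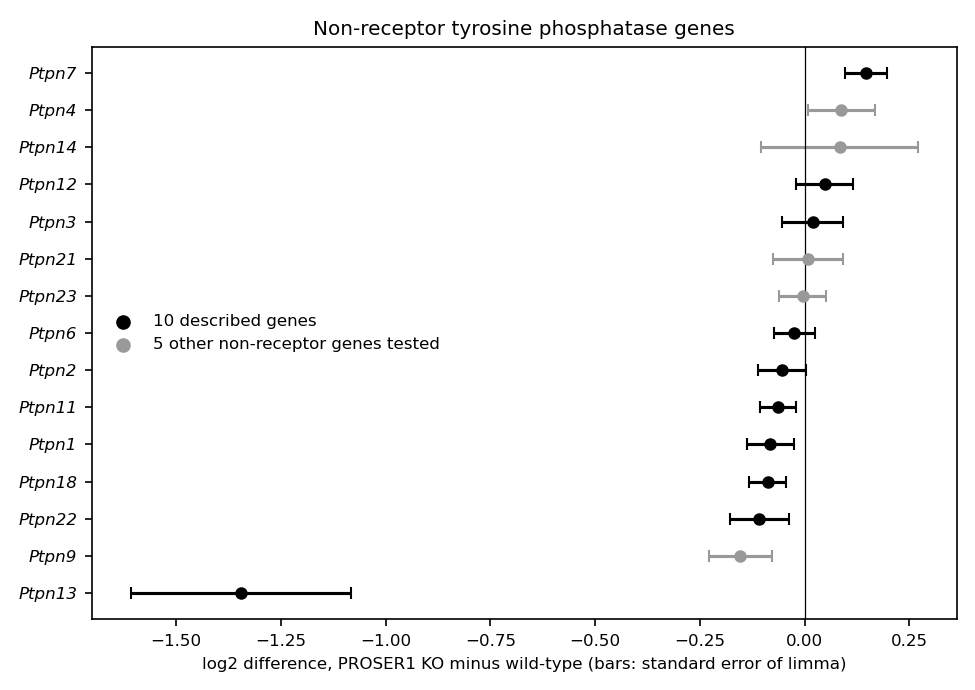
Log2 difference (PROSER1 KO minus wild-type) of the 10 phosphatase genes (black) and of 5 other tested non-receptor genes (grey) on log2(normalized count + 1), with bars of 1 standard error from limma. All genes but Ptpn13 lie between -0.15 (Ptpn9) and 0.15 (Ptpn7), while Ptpn13, chosen for this difference, is at -1.35.

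Per kb of exon, the members spanned a wide range of levels. In wild-type libraries Ptpn6 was highest with 3333 normalized counts per kb, followed by Ptpn7 with 1416. Ptpn11 (825) and Ptpn12 (798) came next and overlapped each other, as did Ptpn18 (680) and Ptpn1 (653). They were followed without overlap by Ptpn2 (616), Ptpn22 (358), Ptpn3 (108) and, last, Ptpn13 with 21.6 normalized counts per kb. In PROSER1 KO libraries the order was the same except that Ptpn12 (825) stood before Ptpn11 (789), which overlapped it, and that Ptpn1 (618) and Ptpn2 (594) also overlapped. Ptpn13 was last again, with 8.10 normalized counts per kb.

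Ptpn13 thus made up a very small share of the summed level per kb of the 10 members: 0.245% ± 0.0977 (SD, n = 4) in wild-type and 0.0923% ± 0.0147 (SD, n = 3) in PROSER1 KO libraries. Ptpn6 made up 37.8% and 37.4%, and Ptpn7 16.1% ± 0.57 and 17.9% ± 0.91. The coefficient of variation of the normalized count of Ptpn13 was 40.0% within the wild-type and 16.5% within the PROSER1 KO group, and 2.37% within the wild-type group without replicate 1. The last value rests on 177 to 232 read pairs per library. Their 95% counting intervals, from 175 to 246 normalized counts, were wider than the range of the values (203 to 213). For the other members the coefficient of variation was 1.91% to 8.79% within the wild-type and 1.38% to 7.50% within the PROSER1 KO group.

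**Figure D4:**
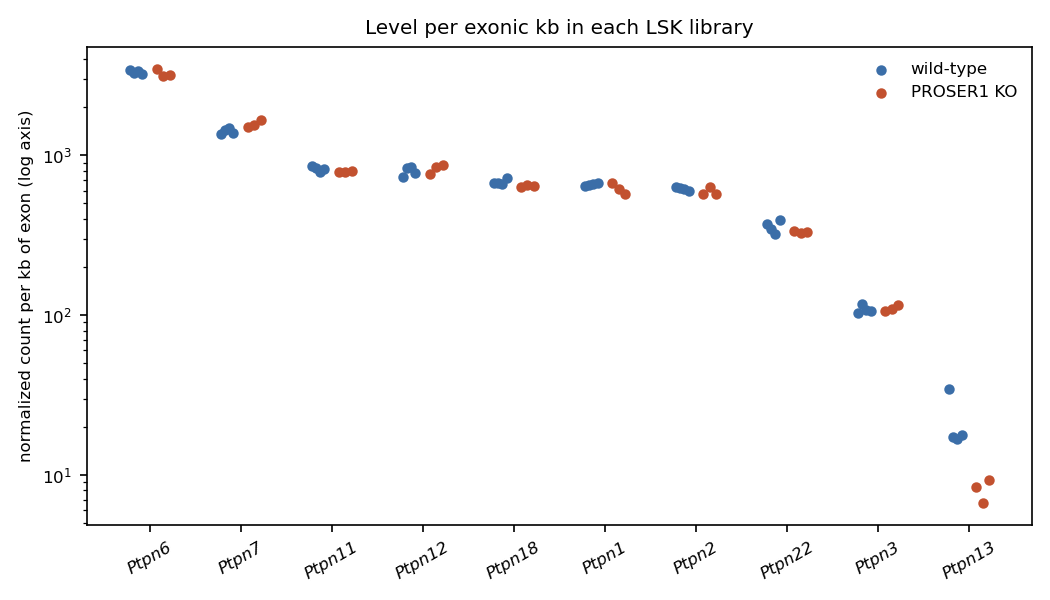
Normalized count per kb of exon of the 10 phosphatase genes on a log axis, with a point for each of the 4 wild-type and 3 PROSER1 KO libraries. Ptpn6 is at the top with group means of 3333 and 3279, and Ptpn13 at the bottom with 21.6 and 8.10 and the only wide gap between the groups.

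Of the 7 remaining classical non-receptor genes, 5 reached the minimum mean of 10 and none was called by limma, edgeR or DESeq2, with 0 at an unadjusted p under 0.05 by limma and 0 without overlap. Ptpn4, the closest relative of Ptpn3, was at 1770 ± 172 in wild-type and 1877 ± 104 in PROSER1 KO libraries (SD, n = 4 and 3, log2 difference 0.09), and Ptpn9 was at 1500 ± 109 and 1348 ± 92.6 (log2 difference -0.15, adjusted p = 0.548 from limma). The FERM-domain genes Ptpn14 and Ptpn21 had log2 differences of 0.08 and 0.01, and Ptpn23, an endosomal phosphatase homolog, had one of -0.00. Ptpn5 (means 8.75 and 6.08) stayed under the filter, and Ptpn20 did not exceed 1.16 in any library, which is below the upper limit for a gene at 0.

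Among the 21 receptor-type phosphatases, 13 were tested and none was called by limma, edgeR or DESeq2. Their median log2 difference was 0.04 (0.00 over all tested genes), 4 had an unadjusted p under 0.05 and 5 had groups without overlap. Over all tested genes, 9.73% had such a p by limma. PROSER1 KO lay above without overlap for 5.17% of all tested genes and below for 4.83%. Here it lay above for Ptprk, Ptprm and Ptpro and below for Ptpra and Ptpru. Ptprk had a log2 difference of 0.82 (adjusted p = 0.396 from limma). Ptprm had normalized counts of 12.5, 6.31, 19.5 and 24.3 in wild-type libraries and 29.2, 65.2 and 53.8 with PROSER1 KO, a log2 difference of 1.67 (standard error 0.49, adjusted p = 0.288 from limma). Ptpro had 18.5 to 31.7 in wild-type libraries and 107, 41.5 and 32.6 with PROSER1 KO, so that its log2 difference of 0.97 leaned on PROSER1 KO replicate 1 (adjusted p = 0.502 from limma). At the other end, Ptpru had a log2 difference of -0.74 (adjusted p = 0.393 from limma), and Ptprb, an endothelial gene, one of -0.17 with overlapping groups. Ptprc (CD45), the main phosphatase of the surface of blood cells, was at 16020 ± 757 (SD, n = 4) and 16482 ± 1185 (SD, n = 3).

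Genes that act with the members were counted in 6 lists, and no gene of any list was called by limma, edgeR or DESeq2. Their counts at an unadjusted p under 0.05 stand beside a share of 9.73% of all tested genes by limma. Of the genes of proteins known to bind Ptpn13 or to act with it, 12 of 14 were tested, 0 had an unadjusted p under 0.05 and the median log2 difference was 0.02. The list ran from Plekha1 (-0.06) and Nfkbia (-0.05) to Arhgap29 (0.17) and Fas (0.19). Fas, the death receptor, was at 60.8 ± 8.50 (SD, n = 4) in wild-type and 72.3 ± 28.2 (SD, n = 3) in PROSER1 KO libraries (adjusted p = 0.881 from limma). Arhgap29, which encodes a GTPase-activating protein, was at 477 ± 50.5 and 534 ± 40.0.

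For beta-catenin signaling, all 19 genes were tested, with a median log2 difference of 0.00 and 2 at an unadjusted p under 0.05. These were Dvl1 (-0.13) and Ccnd1 (-0.13), both with PROSER1 KO below wild-type without overlap. The groups of Csnk1a1 (0.08) did not overlap either, with PROSER1 KO above. Over all tested genes, PROSER1 KO lay below without overlap for 4.83% and above for 5.17%. The target gene Axin2 was at 101 ± 44.2 in wild-type and 74.1 ± 10.2 in PROSER1 KO libraries (log2 difference -0.36, adjusted p = 0.738 from limma), and the transcription factor Lef1 was at 43.3 ± 11 and 30.7 ± 19.6 (log2 difference -0.61, adjusted p = 0.671 from limma). Both Axin2 and Lef1 overlapped between the groups. Axin2 was at 165 in wild-type replicate 1 and at 69.6 to 94.7 in the other wild-type libraries. It was at 65.7 to 85.5 in PROSER1 KO libraries, so that its log2 difference leaned on wild-type replicate 1. At the upper end of this list were the co-receptor Lrp6 (0.09) and the transcription factor Tcf7l2 (0.16).

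The 11 JAK and STAT genes, substrates of Ptpn1 and Ptpn2 among them, had a median log2 difference of 0.00 and ran from Tyk2 (-0.09) and Stat5a (-0.07) at the lower end to Stat4 (0.06) near the upper end, with 0 at an unadjusted p under 0.05. The 22 genes listed as receptors and adaptors for Ptpn6 or Ptpn11 had a median of 0.09 and 3 genes at an unadjusted p under 0.05. The highest were Csf1r, the receptor of macrophage colony-stimulating factor, and Cd33. Csf1r was at 540 ± 91.8 in wild-type and 745 ± 111 in PROSER1 KO libraries (log2 difference 0.47, adjusted p = 0.334 from limma). Cd33 had a log2 difference of 0.47 (adjusted p = 0.309 from limma). Only the groups of Csf1r did not overlap among the genes of this list, with PROSER1 KO above as for 5.17% of all tested genes. The lowest were Kit (-0.07) and the adaptor Grb2 (-0.05).

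The 18 SRC-family kinases and partners of the PEST-type enzymes had a median of 0.02 and 0 genes at an unadjusted p under 0.05, from the lymphoid kinases Blk (-0.40) and Zap70 (-0.29) to the adaptor Bcar1 (0.22). The 8 MAP kinase genes, which include the substrates of Ptpn7, had a median of 0.01 and 1 gene at an unadjusted p under 0.05. That gene was Mapk11 (p38 beta), at 482 ± 62.5 (SD, n = 4) in wild-type and 328 ± 15.4 (SD, n = 3) in PROSER1 KO libraries without overlap, with a log2 difference of -0.55 and an adjusted p of 0.132 from limma. Map2k2 followed with -0.10 (adjusted p = 0.562 from limma), also with PROSER1 KO below wild-type without overlap, as for 4.83% of all tested genes. Mapk9 was at the upper end with 0.09.

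Of the 42 genes of the table within 1 Mb of Ptpn13 on chromosome 5, 11 were tested and none was called by limma, edgeR or DESeq2. By limma, 1 of the 11 had an unadjusted p under 0.05, against 9.73% of all tested genes. That gene was Mapk10 (JNK3), which lies 214 kb upstream. Its normalized counts were low, at 17.3, 21.6, 21.8 and 30.1 in wild-type libraries and 9.39, 3.38 and 8.64 with PROSER1 KO. The groups did not overlap, with PROSER1 KO below as for 4.83% of all tested genes. The wild-type mean was 22.7 ± 5.36 (SD, n = 4) and the PROSER1 KO mean 7.14 ± 3.27 (SD, n = 3), with a log2 difference of -1.62 (standard error 0.44, adjusted p = 0.246 from limma). Aff1, the nearest tested gene at 94.1 kb on the other side, had a log2 difference of 0.12. Slc10a6, the nearest protein-coding gene at 7.41 kb, was at 0 in every library, as was Gm23085, a short non-coding RNA gene at 4.28 kb.

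**Figure D5:**
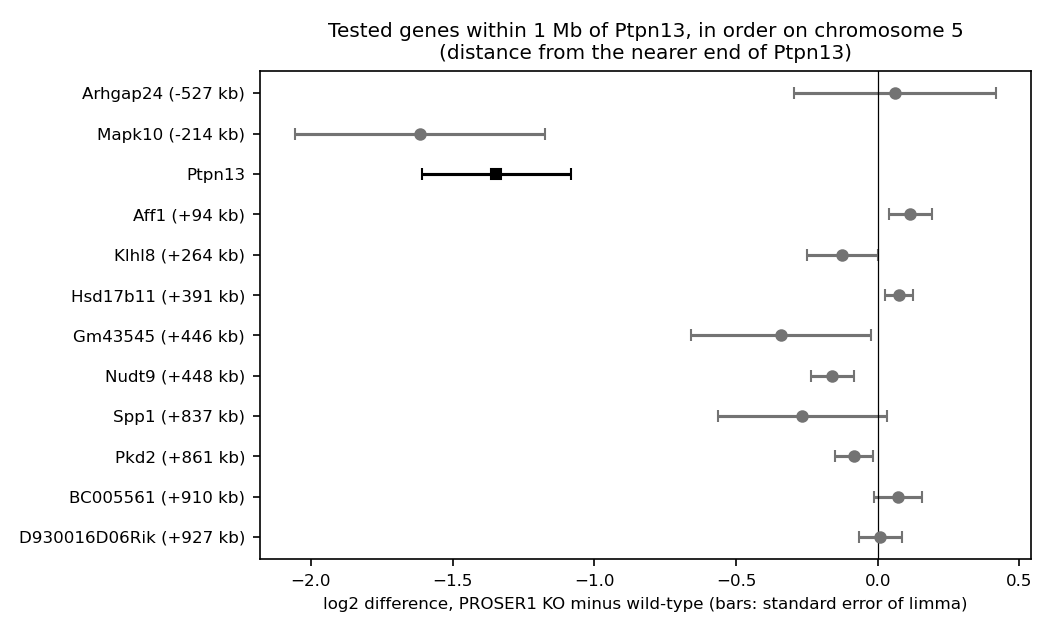
Log2 difference (PROSER1 KO minus wild-type) with standard errors from limma for Ptpn13 and the 11 tested genes within 1 Mb, in order along chromosome 5, with the distance of each from the nearer end of Ptpn13. Mapk10 (-1.62) and Ptpn13 (-1.35) lie apart from the other genes, and neither was called by limma.

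The genes whose pattern over the 7 libraries was most like that of Ptpn13 were Osbpl10 (Pearson r = 0.987 of log2(normalized count + 1)), E2f5 (0.983), Apol7b (0.979), Tpm2 (0.976) and Josd1 (0.976). These correlations describe 7 libraries that share their groups, and 92 tested genes other than Ptpn13 had a coefficient above 0.9. Osbpl10 was at 26.9 in wild-type replicate 1, at 14.4 to 18.5 in the other wild-type libraries and at 5.92 to 7.68 in PROSER1 KO libraries. Apol7b was at 45.2 in wild-type replicate 1, at 20.7 to 25.2 in the other wild-type libraries and at 7.30 to 10.6 in PROSER1 KO libraries. Both had wild-type replicate 1 highest and the PROSER1 KO libraries lowest, like Ptpn13, which follows from their choice by correlation with it. The order of the other wild-type libraries differed from that of Ptpn13 in both. Among the other phosphatases the coefficient with Ptpn13 ran from -0.81 (Ptpn7) to 0.84 (Ptpn11).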

How the data were processed

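RNA-seq of LSK cells (polyA RNA, directional kit) comprised 4 wild-type and 3 PROSER1 KO libraries, grouped by their labels. Per the study's methods and the submitters' processing notes, the authors trimmed reads (Trimmomatic), mapped them to mm10/GRCm38.p6 (STAR), counted read pairs per gene (featureCounts) and deposited counts divided by DESeq2 size factors, a normalized signal. Recovered read pairs were whole within 0.01 for 100% of values, and 0 columns of other samples were present. Groups were compared with limma 3.58.1 (R 4.3.3; lmFit, eBayes with trend) after a pseudocount of 1 and log2 transformation, which understates changes of low genes, for the 16251 genes that averaged 10 or more. edgeR 4.0.16 (quasi-likelihood) and DESeq2 1.42.0 ran on recovered read pairs, and all were tested on simulated data. Also tried were a pseudocount of 0.1 or 10, a minimum mean of 50 or none, robust or trend-free eBayes, TMM or quantile normalization, a replicate block and omission of each library. Exonic lengths and positions came from GENCODE M21 (GRCm38) and promoters from RefSeq, where 8 of 10 members had a window. The members and lists were chosen with earlier results of these data known. Text names the members, overlapping genes, the outer 2 genes at each end of a list, genes within 1 Mb of Ptpn13 and its 5 most correlated genes. It also names some list genes whose groups did not overlap. Some genes that this rule names are not reported here.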

Additional observations from a re-analysis of the deposited data

Results flagged for a closer look

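Ptpn13 in the wild-type libraries had 1 library far from the others. The gap between wild-type replicate 1 (417 normalized counts) and the next wild-type library (213) was 0.954 of the whole range of the 4 libraries, and a share this large marked the library by a fixed rule on gaps. This describes values that also entered the choice of Ptpn13 and is no test. It was the only such gene among the 15 tested non-receptor phosphatase genes, and chance alone gives about 1 in 20 groups of this kind. Over all 16251 tested genes, 557 (3.43%) had 1 wild-type library so far above the others and 343 (2.11%) had 1 so far below, and the high library was wild-type replicate 1 in 119. The PROSER1 KO group, with 3 libraries, was not examined in this way.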

How the results depend on the processing

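The log2 difference of Ptpn13 was below 0 in all 20 alternative settings, from -1.45 to -1.10, and leaving out each library in turn gave the same range. The number of members called was 0 with limma and 1 (Ptpn13) with DESeq2 and with robust variance estimates, also when wild-type replicate 1 was left out of each (2 settings chosen after seeing the data). It was 0 in every other setting, each library left out included. The number called among the other non-receptor and the receptor-type phosphatases was 0 in every setting. Over all tested genes, 42 were called with limma, 165 with DESeq2, 80 with robust variance estimates, 17 without trend, 23 without PROSER1 KO replicate 2 and 28 without wild-type replicate 1. Replicate numbers did not pair the libraries (correlations of deviations of 0.0226, 0.0575 and -0.106 for equal numbers), and the fit with a replicate block gave a log2 difference of -1.42 for Ptpn13, 0 members called and 35 genes called in all. The sign of Ptpn6 was above 0 in 1 setting and that of Ptpn3 below 0 in 4. Depth limited Ptpn13 most, with 95 to 434 read pairs per library against 666 to 11112 for the other members.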
